A study of Mus musculus with 12 samples.

Results

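This report compares Tcra repertoires of wild-type (WT) preselection thymocytes sampled 24 h after genetic labelling with those of the whole preselection population at steady state. The comparison takes 4 of the 12 libraries of the series, 2 from each sampling, chosen by their titles alone. All 4 came from mice aged 4 to 6 weeks that were homozygous WT, carried TcrdCreER, a tamoxifen-activated Cre recombinase at the Tcrd locus, and were Rosa26ZsG/+ for a Cre-dependent ZsGreen reporter. The background was C57BL/6J, with the Tcra-Tcrd locus that carries TcrdCreER derived from strain 129, and the strain field of the labels gives the reporter as ZsG/ZsG. The 24 h mice had received 1 mg of tamoxifen intraperitoneally and only their ZsGreen+ cells were taken. For the steady-state mice the labels record no tamoxifen and no selection on ZsGreen, so treatment and sorted population differ together between the groups and cannot be told apart. A knockout (KO) pair of groups, homozygous for DPASEKO and otherwise handled alike, serves to test whether the change differed by genotype. With the 48 h libraries of both genotypes it also enters the estimate of the spread between libraries.

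All cells were sorted as CD3e- double-positive (DP) thymocytes, which carry both CD4 and CD8 and have not yet been selected on their receptor. Tcra transcripts were amplified from total RNA by template-switch RACE with a primer in Trac, the constant segment. Each table gives, for every pair of a Trav (variable) and a Traj (joining) segment, its fraction of the repertoire. The 4 tables list 85 Trav segments between them, of which 81 stand in every one. With 43 Traj segments these make 3483 pairs, and each library was divided by its own total over them, so values below are percentages of that total. In RNA from a bulk population, a smaller number of cells with a rearrangement and less transcript per cell cannot be told apart.

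Tcra differs from other receptor loci in that 1 allele can rearrange repeatedly. Recombination begins in DP cells between Trav segments nearest to the joining array and Traj segments at its 5' end, where the TEA promoter, upstream of Traj58, and the Traj49 promoter open the array. Each later round joins a Trav segment farther upstream to a Traj segment farther downstream and deletes the earlier join. Tcrd lies between the Trav and Traj segments and is deleted by the first Tcra rearrangement, so a Cre expressed from Tcrd labels cells before that step. The comparison therefore sets recently labelled cells beside a population of mixed age.

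High Traj numbers mark the 5' end of the array and low numbers its 3' end. In GRCm38 the array runs over 60.6 kb of chromosome 14, from Traj58 (54157280 to 54157342) to Traj2 (54217836 to 54217901), on the plus strand. The 3 Traj segments with the largest rise and the 3 with the largest fall are shown, because they mark the ends of the pattern described below. They are Traj56 (chr14:54159263-54159325), Traj52 (chr14:54165316-54165381), Traj53 (chr14:54162644-54162709), Traj2 (chr14:54217836-54217901), Traj11 (chr14:54207139-54207197) and Traj9 (chr14:54209393-54209450). Sequences are the plus strand of the GENCODE M21 annotation of GRCm38, written 5' to 3', and capitals mark the codons of the Phe-Gly-X-Gly motif that joining segments carry.
Traj56: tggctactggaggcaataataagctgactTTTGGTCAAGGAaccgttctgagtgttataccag
Traj52: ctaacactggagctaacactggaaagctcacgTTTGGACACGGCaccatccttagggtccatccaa
Traj53: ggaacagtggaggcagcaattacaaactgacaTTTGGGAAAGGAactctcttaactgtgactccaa
Traj2: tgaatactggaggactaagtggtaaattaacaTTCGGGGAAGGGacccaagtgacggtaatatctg
Traj11: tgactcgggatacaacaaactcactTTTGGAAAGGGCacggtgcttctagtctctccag
Traj9: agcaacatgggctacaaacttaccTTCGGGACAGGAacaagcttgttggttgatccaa
The motif was found in 40 of the 43 Traj segments (93.0%), so it does not set these 6 apart. The 43 segments are between 57 and 66 bases long.

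The 2 libraries at 24 h were not alike in resolution. The deposited fractions summed to 0.996 in 24 h replicate 1 and to 1.98 in 24 h replicate 2, against 0.998 in both steady-state libraries. The share of pairs listed at 0 was 1.55% and 1.58% at steady state, 7.90% in 24 h replicate 1 and 42.9% in 24 h replicate 2. The smallest share above 0 was 0.000393% and 0.000414% at steady state, 0.000858% in 24 h replicate 1 and 0.00402% in 24 h replicate 2. In the series, 4 libraries have sums near that of 24 h replicate 2: replicate 2 of WT and of KO at 24 h and at 48 h. The median absolute difference between replicates over Trav segments, on the log2 scale, was 0.17 at steady state and 0.99 at 24 h. Over Traj segments it was 0.11 and 0.27. The 24 h libraries were thus closer to each other in Traj than in Trav usage. The Bray-Curtis distance, which runs from 0 for identical to 1 for disjoint profiles, was 0.0948 between the 24 h libraries over Traj segments and 0.298 to 0.381 between samplings. Over Trav segments it was 0.326 between the 24 h libraries and 0.219 to 0.409 between samplings.

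At 24 h, transcripts of the 5' part of the joining array held a larger share of the repertoire and those of the 3' part a much smaller share than at steady state. The mean Traj number of a transcript was 31.4 and 30.1 in the steady-state libraries and 41.7 and 43.0 at 24 h, a difference of 11.6. Both 24 h libraries lay above both steady-state libraries. With 2 libraries against 2, an exact two-sided permutation test cannot go below p = 0.333, so single values of this kind were not tested. Traj segments were tested together with limma on log2(percent + 0.01), in a model with 1 mean for each of the 6 groups of the series and Benjamini-Hochberg adjustment over the 43 segments. At an adjusted p under 0.05, 14 segments rose (32.6%) and 21 fell (48.8%), and 8 were not called. The share called in either direction, 81.4%, is the background for the counts of Traj windows below.

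**Figure D1:**
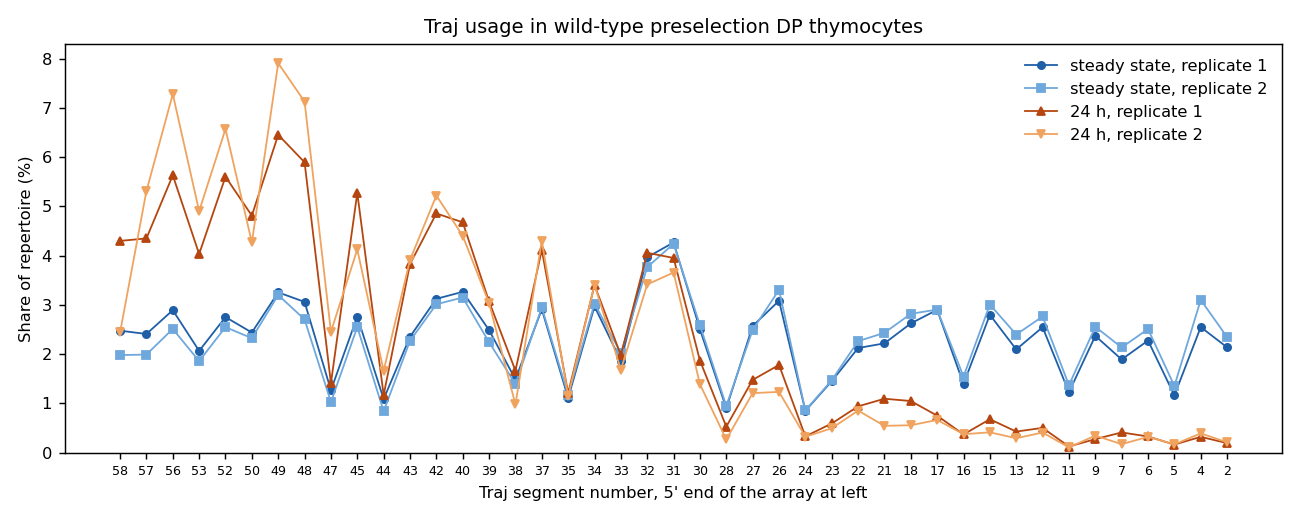
Share of the repertoire (percent) held by each of the 43 Traj segments, ordered from the 5' end of the array at left, in the 2 steady-state and 2 24 h WT libraries (1 line each). The 24 h lines lie above the steady-state lines from Traj57 to Traj39 and below them from Traj31 to Traj2.

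Traj56 held 2.89% and 2.51% at steady state against 5.63% and 7.28% at 24 h. It had the largest rise, a log2 difference of 1.24 (SE 0.21, adjusted p = 0.000334, limma). Traj52 rose from 2.75% and 2.55% to 5.60% and 6.57% (1.19, SE 0.13, adjusted p = 1.36e-05, limma). For both segments the groups did not overlap, and 24 h replicate 2 was the highest library. Traj49, next to the promoter of that name, was the most used segment of both 24 h libraries, with 6.46% and 7.91%, against 3.26% and 3.20% at steady state. Its rise was 1.14 (SE 0.17). The other segments among the 8 largest rises were Traj53 (1.18), Traj48 (1.17), Traj57 (1.13), Traj50 (0.93) and Traj45 (0.81), and none of the 8 had overlapping groups. Over all 43 segments, both 24 h libraries lay above both steady-state libraries in 16 (37.2%) and below them in 22 (51.2%). Traj58, the first segment after TEA, was not called: it held 2.48% and 1.98% at steady state against 4.30% and 2.44% at 24 h (0.55, adjusted p = 0.0719, limma). Its 24 h replicate 2 lay within the steady-state range while replicate 1 lay above it. Traj58 was called in 5 of 15 alternatives: with the replicate number as a block (adjusted p = 0.0227, limma), on the centred scale, with a term for the 4 libraries of near-2 sums, without those 4, and without WT 24 h replicate 2 alone.

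At the 3' end the differences were larger. Traj2, the last segment, held 2.14% and 2.35% at steady state against 0.194% and 0.211% at 24 h. On the log2 scale it fell by 3.41, with an SE of 0.18 and an adjusted p of 1.44e-07 (limma). Traj11 held 1.23% and 1.37% at steady state against 0.125% and 0.108% at 24 h, and fell by 3.37 (SE 0.21). Traj9 held 2.37% and 2.56% at steady state against 0.276% and 0.347% at 24 h, and fell by 2.95 (SE 0.15). For each of these 3 segments both 24 h libraries lay far below both steady-state libraries and close to each other. The others of the 8 largest falls were Traj4 (-2.95), Traj7 (-2.86), Traj6 (-2.84), Traj5 (-2.84) and Traj13 (-2.63). Traj7 had the widest spread of the 8, with 0.411% and 0.173% at 24 h. Traj18, the joining segment of the NKT cell receptor, had 2.62% and 2.82% at steady state against 1.05% and 0.557% at 24 h, and fell by 1.82 (SE 0.28). None of the 16 segments with the largest rises and falls lost its call in any of 15 alternative analyses.

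The change was graded along the array rather than divided into an upper and a lower part. In the window Traj58 to Traj53, 3 of 4 segments rose (median difference 1.15 on the log2 scale), and in Traj52 to Traj45 all 6 rose (1.03). In Traj44 to Traj39, 4 of 5 rose (0.54), and in Traj38 to Traj31 1 of 7 rose, Traj37, and none fell (-0.05). All 7 segments fell in each of the windows Traj30 to Traj22 (-1.27), Traj21 to Traj12 (-2.02) and Traj11 to Traj2 (-2.95), while the median over all 43 segments was -0.17. On a centred scale, where each library is centred on its own mean log2 value over segments, that median was 0.55, 21 segments rose and 18 fell. There 6 of 7 segments of Traj38 to Traj31 rose and 4 of 7 of Traj30 to Traj22 fell, so the point at which rises give way to falls depends on the scale. Traj33, the joining segment of the MAIT cell receptor, lies at that point: it had 1.87% and 2.02% at steady state against 1.98% and 1.69% at 24 h, with overlapping groups (-0.09, and 0.63 on the centred scale). Across the 43 segments, the log2 difference followed the distance from Traj58 with a Spearman correlation of -0.975 and a slope of -0.85 per 10 kb. Taken alone, 24 h replicate 1 gave a slope of -0.81 and replicate 2 one of -0.89 per 10 kb. These are descriptions across segments, which share libraries and sum to a fixed total.

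**Figure D2:**
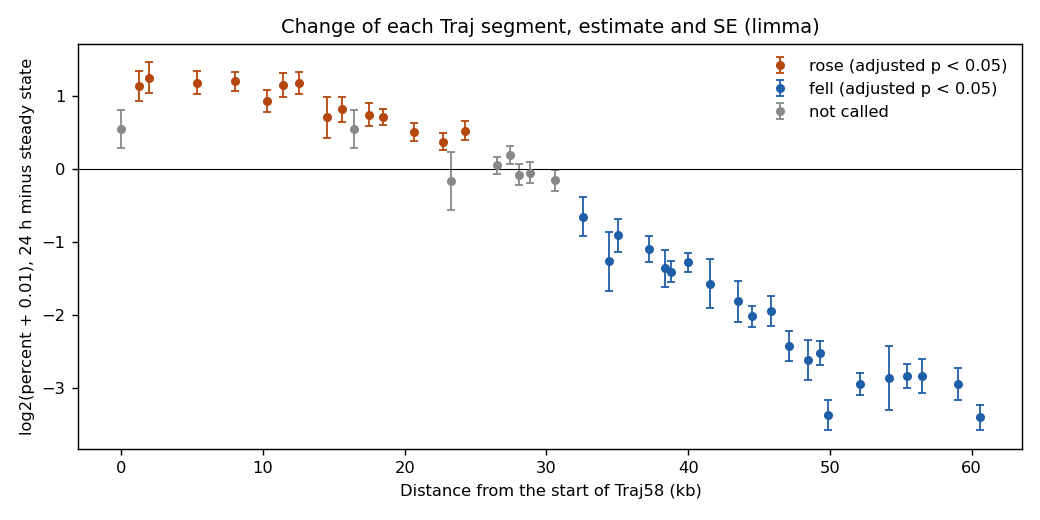
Difference of log2(percent + 0.01) between 24 h and steady state for each of the 43 Traj segments (point, limma estimate; bar, SE) against the distance of its start from that of Traj58 in kb, coloured by the limma call. The 14 rises lie toward the 5' end and the 21 falls toward the 3' end, with most uncalled segments between them.

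As shares of the repertoire, Traj58 to Traj53 held 9.85% and 8.35% at steady state against 18.3% and 19.9% at 24 h. Traj52 to Traj45 held 15.5% and 14.4%, then 29.5% and 32.5%, and was the window with the largest share at 24 h. The window Traj38 to Traj31 held 18.6% in each steady-state library and 20.4% and 18.6% at 24 h. The last window, Traj11 to Traj2, had 13.6% and 15.4% at steady state against 1.82% and 1.72% at 24 h. The effective number of Traj segments, which counts how many equally used segments would give the same evenness, was 40.5 in both steady-state libraries and 29.5 and 27.1 at 24 h. The 10 most used Traj segments of a library held 32.8% in each at steady state against 51.9% and 57.3% at 24 h. Steady-state usage was close to even over the array, and 24 h usage was concentrated.

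On the variable side, Trav segments near the joining array held a larger share at 24 h. The 80 segments with an annotated position were ranked along chromosome 14, from Trav1 (52427928 to 52428876), 1729 kb upstream of Traj58, as rank 1 to Trav21-dv12 (53875984 to 53876752), 281 kb upstream, as rank 80. Ranks and distances are those of GRCm38 and were not checked against the strain 129 locus that carries TcrdCreER. The mean Trav rank of a transcript was 42.7 and 41.2 at steady state against 53 and 55.2 at 24 h, a difference of 12.2. The 27 proximal segments held 37.2% and 33.1% at steady state against 57.9% and 63.7% at 24 h. The 27 central segments held 33.9% and 36.3%, then 25.9% and 20.6%. The 26 distal segments held 28.1% and 29.97%, then 15.4% and 13.8%. The groups did not overlap in any of the 3 zones.

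Single Trav segments were less clear. Of 81 tested with limma, 2 fell (2.47%) and none rose, and 20 had an unadjusted p under 0.05. Both were at the far end of the locus. Trav1, the most distal, held 1.76% and 2.23% at steady state against 0.0798% and 0.0208% at 24 h, and on the log2 scale it fell by 5.24, with an SE of 0.64 (adjusted p = 0.00276, limma). The adjusted p stayed below 0.05 in all 15 alternatives, up to 0.0417. Trav2, at 52567198 to 52568051, held 1.30% and 1.53% at steady state against 0.0867% and 0.0125% at 24 h. It fell by 4.93 (SE 0.88, adjusted p = 0.0299, limma), and the KO 24 h replicate 2 table, which does not list Trav2, is missing in that fit. This call was lost in 6 of the 15 alternatives, with adjusted p up to 0.242 without WT steady-state replicate 2.

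Segments that were not called also had large differences. Trav14d-2 held 0.959% and 0.901% at steady state, then 0.351% and 0.0703% (-2.46, adjusted p = 0.215, limma). Trav7d-2 went from 1.62% and 1.79% to 0.864% and 0.222% and Trav7-1 from 1.12% in each library to 0.458% and 0.215%. In each of these 3 both 24 h libraries lay below steady state. The distal segment Trav3-1 held 1.45% and 1.52% at steady state against 0.192% and 0.649% at 24 h (-2.03, adjusted p = 0.143, limma). Among proximal segments, Trav3-4 held 0.997% and 0.821% at steady state against 2.27% and 4.52% at 24 h (1.81, adjusted p = 0.0579). Trav4-4-dv10 held 1.86% and 1.89%, then 3.98% and 4.98% (1.25, adjusted p = 0.0967). Trav14-3 held 1.76% and 1.80%, then 3.74% and 10.6% (1.81, adjusted p = 0.141). In all 3 segments the 24 h libraries lay above the steady-state ones, with replicate 2 the higher. Trav15-2-dv6-2 held 0.582% and 0.615% at steady state, 1.08% in 24 h replicate 1 and 9.81% in replicate 2 (2.42, SE 2.01, adjusted p = 0.45). The Trav15 family, to which it belongs, held 2.18% in KO 24 h replicate 1 and 16.1% in KO 24 h replicate 2. Trav21-dv12, the segment nearest to the joining array, held 1.97% and 1.88% at steady state against 3.62% and 1.48% at 24 h, so the 24 h libraries lay on either side.

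**Figure D3:**
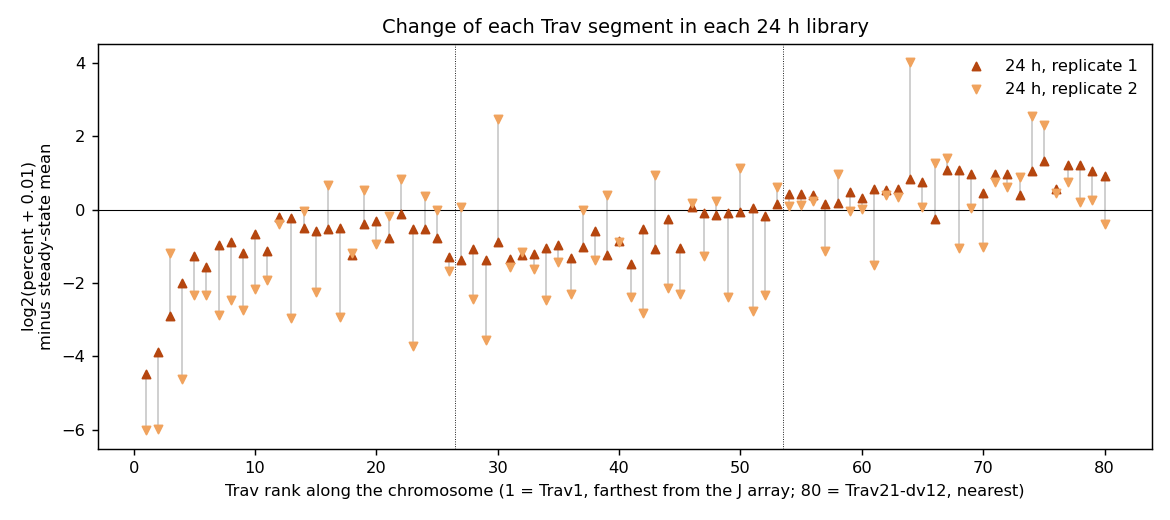
Value of log2(percent + 0.01) in each 24 h library minus the mean of the 2 steady-state libraries, for the 80 Trav segments with a position, by rank along the chromosome; grey lines join the 2 libraries and dotted lines part the zones. Replicate 1 follows rank more closely than replicate 2 (Spearman 0.825 against 0.589), and both are lowest at Trav1 and Trav2.

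The scatter of replicate 2 was shared with other libraries. Across Trav segments, the replicate 2 minus replicate 1 difference of WT 24 h correlated with that of KO 24 h at 0.93, of WT 48 h at 0.89 and of KO 48 h at 0.89. With steady-state WT it was -0.06. These are correlations across segments and are given as a description. In an analysis added after the data were seen, a term common to the 4 libraries that sum to near 2 was put in the model. Then 15 Trav segments rose, all of them proximal, and 32 fell, 16 distal and 16 central. These counts assume that the shift was equal in all 4 libraries, which was not tested. With those 4 libraries left out, 22 proximal segments rose and 38 fell, 20 distal and 18 central. In that second analysis the single 24 h library of each genotype was assumed to vary as the steady-state libraries do. With the term, Trav14-3 rose by 1.18, Trav3-4 by 1.43 and Trav21-dv12 by 0.87, whereas Trav15-2-dv6-2 was 0.44 and was not called (adjusted p = 0.314, limma).

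Counts of non-overlapping groups do not depend on the limma model, but they rest on shares of a fixed total and were not tested. Of 81 Trav segments, 18 had both 24 h libraries above both steady-state libraries (22.2%) and 36 had both below (44.4%). Of the 27 proximal segments, 16 lay above and none below. Of the 26 distal segments, 19 lay below and none above, and of the 27 central ones 17 lay below and 2 above. The median log2 difference was -1.50 in the distal zone, -1.19 in the central and 0.50 in the proximal zone, against -0.47 over all 81. On the centred scale these medians were -0.91, -0.60 and 1.10, and that over all 81 was 0.13. Segments with the suffix d, which lie in the distal and central parts of the duplicated array, held 35.2% and 36.9% at steady state against 21.1% and 20.6% at 24 h. The Trav6 family of 12 segments held 13.6% and 14.04%, then 11.5% and 4.02%, and the Trav14 family of 6 segments 9.71% and 9.72%, then 11.96% and 18.9%. The 24 h replicates agreed on the direction in both families and differed in its size. In some other families they lay on either side of steady state. The Trav9 family held 4.45% and 3.45%, then 3.13% and 6.86%, and the Trav5 family 2.89% and 2.58%, then 3.32% and 0.846%.

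Pairs of segments showed which combinations carried these sums. Of 3483 pairs, 43 rose (1.23%) and 436 fell (12.5%), 13.8% in all (limma, adjusted over all pairs). Of the 43 rises, 34 used a proximal Trav segment and all 43 used Traj58 to Traj31. Of the 436 falls, 261 used a distal and 161 a central Trav segment, and 424 used Traj30 to Traj2. In the combination of distal Trav with Traj11 to Traj2, 137 of 182 pairs fell and none rose (median -1.80), and in central Trav with Traj11 to Traj2 103 of 189 fell (-1.64). In proximal Trav with the same Traj window 11 of 189 fell (-0.41), and the median over all pairs was -0.30. In proximal Trav with Traj52 to Traj45, 16 of 162 rose (0.74). On the centred scale 99 pairs rose and 322 fell, with a median of 0.11.

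The count of pairs rested on each of the 4 libraries. It was 0 without WT steady-state replicate 2 (611 at an unadjusted p under 0.05), 42 without WT steady-state replicate 1, 306 when WT 24 h replicate 1 was left out and 54 when its replicate 2 was. Of the 436 pairs that fell, 347 were listed at 0 in 24 h replicate 2, 77 in replicate 1 and 73 in both. Trav12d-2-Traj6, with the largest fall, held 0.105% and 0.124% at steady state, 0.00172% in 24 h replicate 1 and was listed at 0 in replicate 2 (-3.52, adjusted p = 0.00535, limma). Trav1-Traj26 held 0.0977% and 0.132%, then 0.00343% and 0 (-3.41), and 5 of the 10 largest falls were pairs of Trav1. Trav3-4-Traj52 had the largest rise by the naming rule, from 0.0561% and 0.0584% to 0.163% and 0.430% (2.04, adjusted p = 0.0333, limma). Of the 10 largest rises, 6 were pairs of Trav3-4, and every one of the 10 lost its call in 6 to 9 of the 15 alternatives. The 10 largest falls lost theirs in 2 to 7 of the 15. At steady state the most used pair was Trav21-dv12-Traj58, the pair nearest in the genome, with 0.269% and 0.253%. It held 0.495% in 24 h replicate 1, where it was again first, and 0.144% in replicate 2, where Trav14-3-Traj49 was first with 1.08%.

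**Figure D4:**
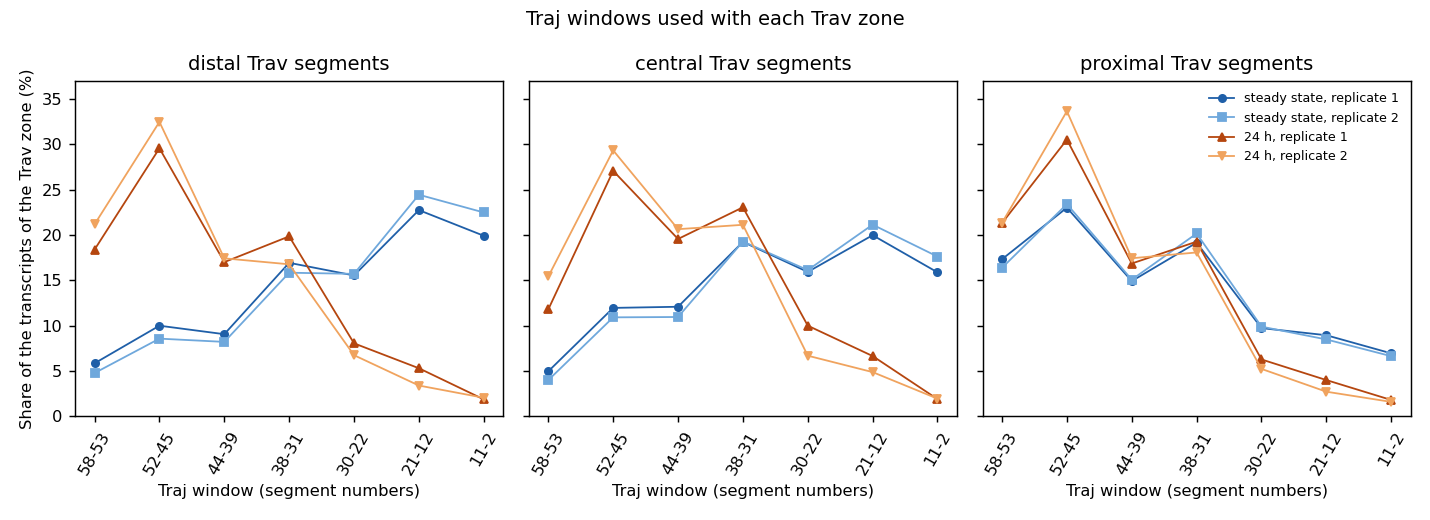
Share (percent) of the transcripts of the distal, central and proximal Trav zones that used each of 7 Traj windows, in each of the 4 WT libraries. At steady state the 3 zones differ in the windows they use, and at 24 h the profile is led by Traj52 to Traj45 in all 3.

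The link between Trav position and Traj position was weaker at 24 h. At steady state, distal Trav transcripts had a mean Traj number of 26.4 and 24.8, central ones 28.3 and 27.1 and proximal ones 38 in both libraries. At 24 h these were 41.6 and 43.1, 39.5 and 41.3, and 42.8 and 43.6. The difference was thus 16.8 for distal, 12.7 for central and 5.23 for proximal Trav segments. Weighted by usage, the correlation of Trav rank and Traj number over pairs was 0.33 and 0.36 at steady state against 0.116 and 0.0911 at 24 h, a description of the pairs of each library. Within the distal zone, Traj11 to Traj2 took 19.9% and 22.5% of the transcripts at steady state and only 1.85% and 2.03% at 24 h. Within the proximal zone the same window took less at steady state, 6.93% and 6.62%, and also fell, to 1.78% and 1.57% at 24 h. There Traj38 to Traj31 took 19.2% and 20.2% at steady state and 19.3% and 18.1% at 24 h, with overlapping libraries. The zone means of Traj number and the correlation did not overlap between groups, and the 2 libraries at 24 h, which differed on single Trav segments, lay close together.

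The same held segment by segment. The mean Traj number of a Trav segment's transcripts was higher in both 24 h libraries than in both steady-state libraries for 79 of 81 Trav segments (97.5%) and lower for none. Trav12d-2, a distal segment, had 24.2 and 22.4 at steady state against 42.6 and 45.6 at 24 h. Trav1 had 23.8 and 23.5, then 29.8 and 30.8, nearer the 3' end at 24 h than Trav12d-2. Its share at 24 h was only 0.0798% and 0.0208%, so the Trav1 means there rest on little. Trav21-dv12 had 46.6 and 46.5, then 47.3 and 49.2. The exceptions were Trav2, with 23.0 and 22.2 at steady state against 28.6 and 21.1 at 24 h, and Trav13-3. In 24 h replicate 2 Trav2 held only 0.0125%, near the smallest share above 0 of that library (0.00402%), so its mean there rests on very little. Counted against the product of the zone's and the window's own shares, distal Trav with Traj58 to Traj53 was found at a ratio of 0.592 and 0.570 at steady state against 1.00 and 1.06 at 24 h. Proximal Trav with the same window was at 1.76 and 1.96, then 1.16 and 1.07. Central Trav with that window was at 0.503 and 0.477, then 0.644 and 0.773. A ratio of 1 is what independent use of both segments would give. Not every combination moved toward 1. Central Trav with Traj21 to Traj12 was at 1.20 and 1.18 at steady state against 1.36 and 1.49 at 24 h. With Traj44 to Traj39 it was at 0.980 and 0.950, then 1.11 and 1.13.

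**Figure D5:**
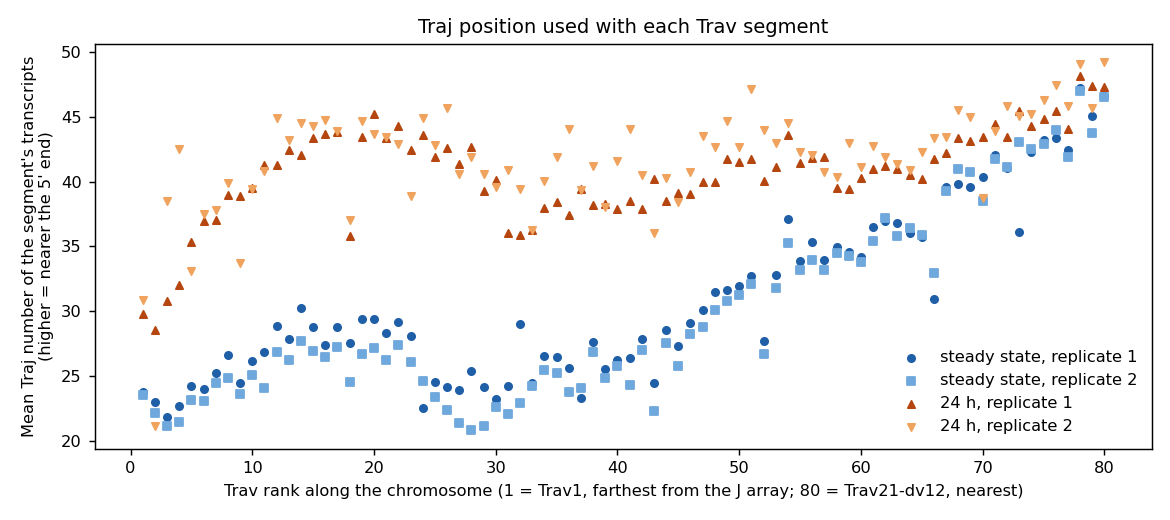
Mean Traj number of the transcripts of each of the 80 Trav segments with a position, by rank along the chromosome, in the 4 WT libraries. Steady-state means climb over the later ranks and are highest near the joining array, whereas 24 h means vary less with rank beyond the first few segments.

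Other cells that the sort could hold were checked by their marker rearrangements. Trav11-Traj18, the invariant join of NKT cells, held 0.0350% and 0.0476% at steady state against 0.0189% and 0 at 24 h (adjusted p = 0.198, limma). Trav11d-Traj18, its duplicate, held 0.00432% and 0.00372%, then 0.000858% and 0. Trav1-Traj33, the join of MAIT cells, held 0.0412% and 0.0518% at steady state against 0.00429% and 0 at 24 h, and fell by 2.23 (adjusted p = 0.0156), a call lost in 5 of 15 alternatives. Only Trav1-Traj33 was called, and for all 3 marker pairs both 24 h values lay below both steady-state values. So did those of 1545 of all 3483 pairs. Among pairs of central Trav with Traj21 to Traj12, to which Trav11-Traj18 belongs, it was 178 of 189. The fall of Trav1-Traj33 was not particular to that pair. Its ratio of mean shares, 24 h to steady state, was 0.046, against 0.025 for Trav1 as a whole. For Trav11-Traj18 that ratio was 0.229, against 0.295 for Traj18 as a whole. The dv-named Trav segments, which Tcrd can also use, held 12.3% and 11.4% at steady state against 16.3% and 23.7% at 24 h. Of these 10 segments, 2 lay above steady state in both 24 h libraries, 3 lay below and 5 overlapped. Over all 81 Trav segments, 18 lay above (22.2%), 36 lay below (44.4%) and 27 overlapped. Trav15-2-dv6-2 alone accounted for 4.84 of the 8.13 percentage points of difference in the mean share. That part came mostly from replicate 2. The segment held 0.582% and 0.615% at steady state, 1.08% in 24 h replicate 1 and 9.81% in replicate 2. All values here are joins of Trav to Traj segments read from Trac, so joins within Tcrd are not counted. The dv-named share therefore cannot detect cells that carry only joins within Tcrd. The part of other cells in the results above was not tested.

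The change from steady state to 24 h was also compared between genotypes. In KO cells, 9 of 43 Traj segments rose (20.9%) and 28 fell (65.1%), and the mean Traj number was 36.6 and 35.2 at steady state against 45.6 and 47.1 at 24 h. The difference of the 2 changes was called in 14 of 43 segments (32.6%, limma), among them all but Traj38 of the window Traj38 to Traj31. Traj37 rose by 0.52 in WT cells and had -0.19 in KO cells, and Traj31 had -0.16 in WT cells and fell by 1.04 in KO cells. Traj2 fell by 3.41 in WT and by 2.50 in KO cells. At steady state the window Traj11 to Traj2 held 5.31% and 6.06% in KO against 13.6% and 15.4% in WT cells. At 24 h it held 0.807% and 0.854% in KO against 1.82% and 1.72% in WT cells, so KO was lower at both samplings. On the centred scale none of the 43 was called (11 at an unadjusted p under 0.05), and none was called without WT steady-state replicate 1 or 2, KO steady-state replicate 2, WT 24 h replicate 1 or KO 24 h replicate 2 (14 to 17 at an unadjusted p under 0.05). Libraries with the same number deviated together across genotypes, with a correlation over Traj segments of 0.94 at steady state and 0.66 at 24 h. With a replicate block within each sampling, added after the data were seen, 26 of 43 were called, among them all 14. The genotype difference was called for none of the 81 Trav segments (0 at an unadjusted p under 0.05) and none of the 3483 pairs (146), and with that block again for none (5 and 317).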

How the data were processed

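Tcra transcripts of sorted DP thymocytes were amplified by template-switch RACE and sequenced, per the labels. The deposited values are fractions of the repertoire for each Trav-Traj pair, per the file headers and the values. No source used here gives the aligner, build or unit of counting, so depth is unknown and no interval or detection limit is given. Positions came from GENCODE M21 (GRCm38) by segment name, with Trav13-5 from RefSeq, and Trav9-3 has no position.

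Each table was divided by its total over the 81 Trav segments listed in all 4 WT tables, which held 97.1% to 99.96% of it, and expressed in percent. The test, written for the case that the files hold no counts, was limma 3.58.1 in R 4.3.3 on log2(percent + 0.01), with 1 mean per group over 12 libraries, 6 residual degrees of freedom, no filter on low values, and Benjamini-Hochberg adjustment at 0.05 over all features of a kind. Differences on this scale understate the change of low shares. Groups of 2 mice are mentioned in the labels without a tie of library to mouse, so p-values measure the spread between libraries, which may be partly technical.

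The members, the segment windows, zones and marker pairs were chosen with earlier results of these data known. Named were the 8 largest called rises and falls of Traj and Trav segments (where under 4 were called in a direction, the 4 largest differences among segments of at least 0.5% mean share), the array ends, Traj58, Traj49, Traj18, Traj33 and Traj2, the 10 largest called rises and falls of pairs with non-overlapping groups, the 5 most used pairs of each group and the marker pairs. Trav12d-2 and Trav13-3 are also named for their Traj use, chosen after their values were seen. The alternatives were pseudocounts of 0.001 and 0.1, filters at 0.5% (segments) and 0.02% (pairs), a centred scale, a replicate block, all listed Trav segments as the total, fits without some libraries and, added after the data were seen, a term for the 4 libraries that sum to near 2, the 6 WT libraries alone, a crossed block and a block within each sampling.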

Additional observations from a re-analysis of the deposited data

Results flagged for a closer look

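For 14 Traj segments the change from steady state to 24 h differed between genotypes by the interaction term (limma, adjusted p under 0.05). As KO minus WT on the log2 scale, the difference was -0.70 for Traj43, -0.54 for Traj42, -0.64 for Traj40, -0.82 for Traj39 and -0.71 for Traj37. It was -0.76 for Traj35, -0.68 for Traj34, -0.82 for Traj33, -0.76 for Traj32 and -0.88 for Traj31. Farther 3' it was -1.18 for Traj30, -1.06 for Traj27 and -0.75 for Traj22, and at the end of the array it was 0.90 for Traj2. The 14 kept their sign in every alternative run, with the smallest differences on the centred scale for most of them, where Traj2 was 1.29 (adjusted p = 0.0526, limma) and Traj31 was -0.49 (adjusted p = 0.175). The median difference over all 43 segments was -0.52, and -0.13 on the centred scale.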

How the results depend on the processing

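The calls of Traj segments were 31 to 35 of 43 with any 1 WT library left out and 34 to 39 in the other alternatives, against 35. The difference in mean Traj number was 11 to 12.3 and that in mean Trav rank 11.1 to 13.3 with 1 library left out. Called Trav segments numbered 2 of 81. They were 5 with the filter on low values, 7 on the centred scale, 47 with the term for the 4 libraries that sum to near 2, 60 without those libraries, 1 with only the 4 or the 6 WT libraries, and 1 to 2 with 1 library left out. Called pairs numbered 479. They were 66 with a pseudocount of 0.001, 257 with the filter, which tested 1554 pairs, 730 with the term, 1782 without the 4 libraries, 0 with only the 6 WT libraries (846 at an unadjusted p under 0.05, limma) and 0 to 306 with 1 library left out. Traj segments that differed between genotypes numbered 14, and were 0 on the centred scale and 0 to 23 with 1 library left out, with 23 reached without KO 24 h replicate 1 and 5 without KO steady-state replicate 1. Traj33 changed sign on the centred scale (0.63), without the 4 libraries (0.029), and it ran from -0.20 to 0.029 with 1 library left out, the latter without WT 24 h replicate 2. Without WT 24 h replicate 1 the sign of 3 others turned: the ranges with 1 library left out were -0.38 to 0.91 for Trav21-dv12, -0.81 to 0.90 for Trav21-dv12-Traj58 and -0.17 to 0.96 for Trav21-dv12-Traj56. The pair Trav7-3-Traj31 was 0.12 with the term. The cause of these shifts was not tested. Depth is unknown, and the resolution of 24 h replicate 2, with 42.9% of pairs listed at 0, limits single pairs most.

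Between samplings the replicate numbers did not pair the WT libraries: the replicate differences of WT steady state and WT 24 h correlated at -0.37 over Traj and -0.06 over Trav segments. Within a sampling they went together across genotypes: WT and KO correlated at 0.94 over Traj and 0.72 over Trav segments at steady state, and at 0.66 and 0.93 at 24 h. A replicate block within each sampling called 26 Traj segments that differed between genotypes. With the replicate block common to all samplings, 36 Traj segments, 21 Trav segments and 598 pairs were called, and 14 Traj segments differed between genotypes. With the WT 24 h numbers crossed in the block, the calls were 35, 2 and 395.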

Other observations

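The Trav segments outside the shared set differed by table. WT steady-state replicate 1 lists Trav7-6 and Trav18, at 0.0224% and 0.0204%, where the other 3 tables list Trav5-1 and Trav13d-2. Trav5-1 held 2.10% in steady-state replicate 2, 0.331% in 24 h replicate 1 and 0.111% in 24 h replicate 2. Trav13d-2 held 0.782%, 0.222% and 0.263% in the same tables. With 1 steady-state library that lists them, neither could be compared. Both were lower in the 24 h libraries than in that library.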
